A study of Drosophila melanogaster with 3 samples.

Results

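The regions described here are the 966 peaks of L(3)mbt on the long chromosome arms that met no Mod(mdg4) peak, out of 2890 L(3)mbt peaks on these arms and 3352 in the whole genome. They were chosen by position alone, as peaks of the L(3)mbt list on 2L, 2R, 3L, 3R or X that shared not a single base with a peak of either Mod(mdg4) list. Chromatin immunoprecipitation and sequencing had been done on Kc167, a line of Drosophila melanogaster cells of embryonic origin, with 1 library for each of 3 antibodies. These were directed against L(3)mbt, against the BTB domain common to all isoforms of Mod(mdg4), and against the Mod(mdg4)2.2 isoform. The labels name no treatment, and the 3 groups share the cells, the serum-free medium and the formaldehyde fixation and differ in the antibody. The peak lists hold 3352, 7621 and 2846 peaks in that order. With 1 library per antibody there is no replicate test, and the values below describe these libraries. Intervals are 95% Wilson intervals on shares and cover counting error only. Depth is unknown, because the lists give peaks and not reads. A peak missing from a Mod(mdg4) list therefore says that none was listed there, not that the protein was absent.

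L(3)mbt, the product of lethal (3) malignant brain tumor, is a nuclear protein with MBT repeats, a fold that in several proteins binds methylated histone tails. Its loss in larvae gives brain tumours in which genes normally kept for the germ line are expressed, and it is a member of repressor complexes. Mod(mdg4) isoforms have a BTB domain in common and differ at the C-terminus, and the 2.2 isoform works with Su(Hw) in the gypsy insulator. The peaks described here are thus places where an L(3)mbt peak was listed and no peak of either Mod(mdg4) list met it.

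The 966 peaks made up 33.4% of the L(3)mbt peaks on the long arms (31.7 to 35.2%), and no conclusion is drawn from that share, since the rule fixes it. Of the other L(3)mbt peaks there, 1528 met BTB and no 2.2, 387 met both, and 9 met 2.2 without BTB. They covered 1.65 Mb of the 4.96 Mb under L(3)mbt peaks, or 33.2% of it. The rule has a sharp edge, and few peaks lay near it. Just inside it, the smallest gaps to a Mod(mdg4) peak were 15 bp at 2L, 10974503 to 10976614, 84 bp at 2R, 12456363 to 12458952, 105 bp at 2R, 14721765 to 14723223, 107 bp at 3R, 11806162 to 11808445, and 108 bp at 2L, 2856654 to 2857685. Just outside it, the smallest overlaps were 13 bp at 3R, 13543498 to 13544580, 36 bp at 3R, 5959506 to 5960858, 67 bp at 3L, 16150973 to 16151990, 99 bp at 3L, 11078725 to 11079737, and 124 bp at 2L, 9967506 to 9968659. In all, 10 L(3)mbt-only peaks had a Mod(mdg4) peak within 200 bp, and 11 of the others shared at most 200 bp with one. The count depends more on the kind of rule than on its edge. It was 983 when an overlap of 50% of the shorter peak was asked for, but 1662 when sharing meant centres within 200 bp.

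As a class these peaks scored low in the L(3)mbt list, but some were among its strongest. The score is the peak caller's own value as the authors deposited it, and it is used here only to rank peaks within their own list. In the L(3)mbt list scores began just above 100, and peaks at or above 3100, where many are tied, were taken as equal. The median score was 228 for L(3)mbt-only peaks (quartiles 148 and 412), 395 for L(3)mbt peaks with BTB and no 2.2 (204 and 841), and 351 for those with BTB and 2.2 (199 and 725). In percentiles of the whole L(3)mbt list these medians stood at 38.9, 60.4 and 56.1. The difference from the class with BTB and no 2.2 was -21.5 points (interval -25.3 to -17.8). That difference rests on how sharing is counted. It was -7.46 with all peaks set to 400 bp, and with centres within 200 bp it was -3.79, with an interval of -7.27 to 0.324.

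At the low end of the list, 412 L(3)mbt-only peaks scored under 200 (42.7%, 39.6 to 45.8%), against 30.7% of the whole long-arm L(3)mbt set. At the high end, 69 scored 1000 or more (7.14%, 5.68 to 8.94%), against 306 of the 1528 peaks with BTB and no 2.2 (20.03%, 18.10 to 22.11%). The score ceiling was reached by 5 L(3)mbt-only peaks (0.518%, 0.221 to 1.21%), against 1.63% of that set. Read the opposite way, the L(3)mbt-only class took 46.4% of the score band from 100 to 200 (43.2 to 49.7%) and 35.5% of those at 200 to 500 (32.7 to 38.5%). They were 22.2% at 500 to 1000 (18.9 to 26.0%), 16.1% at 1000 to 3100 (12.8 to 20.1%) and 10.6% at the ceiling (4.63 to 22.6%). The share was lower in each band than in the one before, although from 500 upwards the intervals of neighbouring bands overlap.

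**Figure D1:**
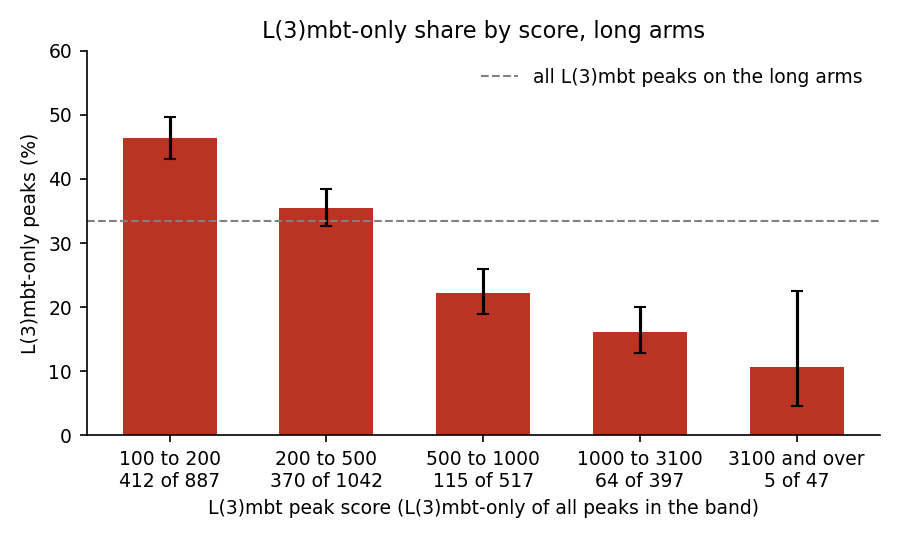
Share of L(3)mbt peaks on the long arms that met no Mod(mdg4) peak (y axis, %) by band of L(3)mbt score (x axis, with the counts). Bars are shares, whiskers are 95% Wilson intervals and the dashed line is the share over all bands, 33.4%. The share is 46.4% in the lowest band and 10.6% at the score ceiling.

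The 10 L(3)mbt-only peaks with the highest scores lay on 3R (6), 2R (3) and 3L (1). At the ceiling were 2R, 7106051 to 7107784, then 3R, 6696923 to 6699085, 7414874 to 7416492, 16447078 to 16449242 and 24963731 to 24965167. None of these peaks at the ceiling lay at the margin of a Mod(mdg4) peak. Their gaps to the nearest BTB peak were 2234 bp on 2R, and 2262, 7073, 11412 and 8521 bp on 3R, in the same order. To the nearest 2.2 peak they were 7221 bp on 2R, and 11172, 13594, 51746 and 74673 bp on 3R. The next 4 were 2R, 3360975 to 3362501, which scored 2905, 2R, 19947664 to 19950275, which scored 2713, 3R, 20864271 to 20865879, which scored 2659, and 3R, 18464171 to 18465659, which scored 2459. Their gaps to BTB were 3480, 10989, 4799 and 10970 bp. The last, 3L, 827450 to 833797, scored 2441 over 6348 bp and had a BTB peak 586 bp away and a 2.2 peak 343 bp away. Among the 69 L(3)mbt-only peaks scoring 1000 or more, 14 had a BTB peak within 1000 bp and 16 had none within 10000 bp. Their median gap was 4955 bp. Over all 966 L(3)mbt-only peaks these counts were 108 (11.2%) and 298 (30.8%), and the median gap was 5452 bp. A BTB peak within 1000 bp was thus more common among the peaks scoring 1000 or more.

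For their score, L(3)mbt-only peaks were wide. Over all scores the widths were close, with medians of 1444 bp for L(3)mbt-only peaks (quartiles 1119 and 1971 bp), 1371 bp with BTB and no 2.2 (1095 and 1919 bp) and 1276 bp with BTB and 2.2 (1067 and 1710 bp). Peaks of 2000 bp or more made up 24.2% of the L(3)mbt-only peaks (21.6 to 27.0%), against 22.9% of the whole long-arm L(3)mbt set, so by this measure they were near the background. Width and score rose together, with Spearman's rho across peaks of 0.52 for the L(3)mbt-only peaks and 0.61 for those with BTB and no 2.2. These peaks come from 1 library and are not independent replicates.

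Within bands of equal score the difference in width was plain. At scores of 200 to 500 the median width was 1551 bp for 370 L(3)mbt-only peaks, 1238 bp for 521 with BTB and no 2.2, and 1227 bp for 147 with BTB and 2.2. In that band 26.5% of the L(3)mbt-only peaks were at least 2000 bp wide (22.2 to 31.2%), against 11.5% of those with BTB and no 2.2 (9.05 to 14.5%) and 9.52% of those with BTB and 2.2 (5.76 to 15.4%). The medians at 500 to 1000 were 1990, 1666 and 1438 bp in the same order of classes, and at 1000 to 3100 they were 2613, 2110 and 1921 bp. At 100 to 200, where peaks are narrow in general, they were 1170, 1064 and 1040 bp. The ceiling was the exception, with 1734 bp for the 5 L(3)mbt-only peaks, against 3758 bp for 34 with BTB and no 2.2 and 3202 bp for 8 with BTB and 2.2. An overlap of 1 bp is met more easily by a wide peak, so the rule tends to place wide peaks in the shared classes. Width is thus tied to the rule, and these widths are a description. How depth and the caller's settings act on width at a given score was not tested.

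**Figure D2:**
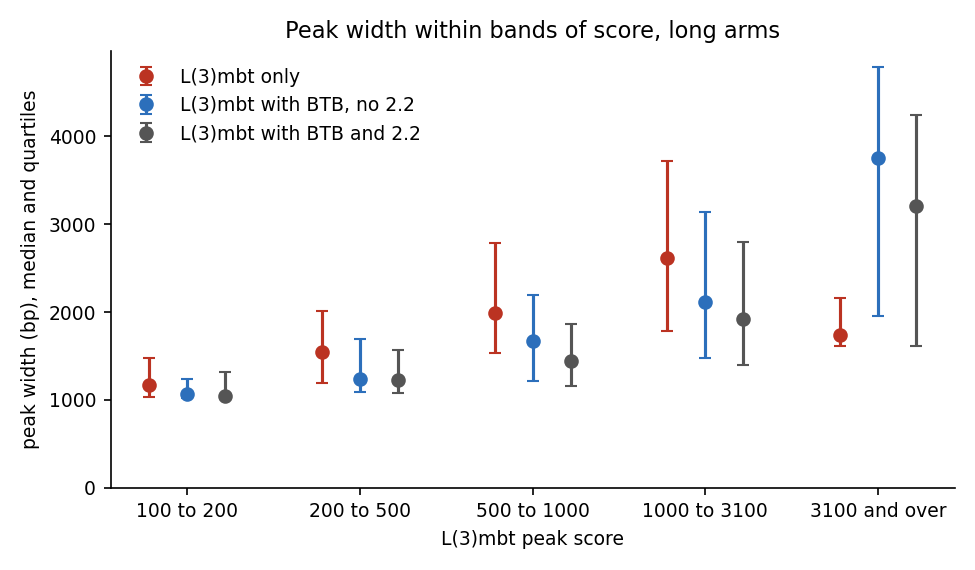
Width of L(3)mbt peaks on the long arms (y axis, bp) within bands of L(3)mbt score (x axis), for peaks that met no Mod(mdg4) peak, those with BTB and no 2.2, and those with BTB and 2.2. Points are medians and whiskers are quartiles over peaks. In the 4 bands below the ceiling the L(3)mbt-only median is the highest, and at the ceiling it is the lowest, at 1734 bp over 5 peaks.

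Many L(3)mbt-only peaks lay within a few kilobases of a BTB peak without meeting it, on arms that held 51.8 BTB peaks per Mb. Gaps from random positions are not given here, so the values below are not read as closeness particular to these peaks. The gap between edges, from an L(3)mbt-only peak to the nearest BTB peak, had a median of 5452 bp (quartiles 2183 and 12055 bp). A BTB peak lay within 500 bp of 46 of them (4.76%, 3.59 to 6.29%), within 1000 bp of 108 (11.2%, 9.34 to 13.3%) and within 5000 bp of 448 (46.4%, 43.3 to 49.5%). For 298 of them none lay within 10000 bp (30.8%). Peaks of the 2.2 isoform, which are fewer, were farther off, with a median gap of 23387 bp (quartiles 10919 and 45335 bp) and 103 L(3)mbt-only peaks within 5000 bp of one (10.7%, 8.87 to 12.8%). Score hardly changed with the gap. The median score was 233 for the 108 peaks within 1000 bp of BTB, 241 for the 340 at 1000 to 5000 bp, 225 for the 449 at 5000 to 25000 bp and 202 for the 69 farther away. Those within 1000 bp included the highest share scoring 1000 or more, 14 of 108 (13.0%), against 6.18%, 6.68% and 5.80% in the farther bands.

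**Figure D3:**
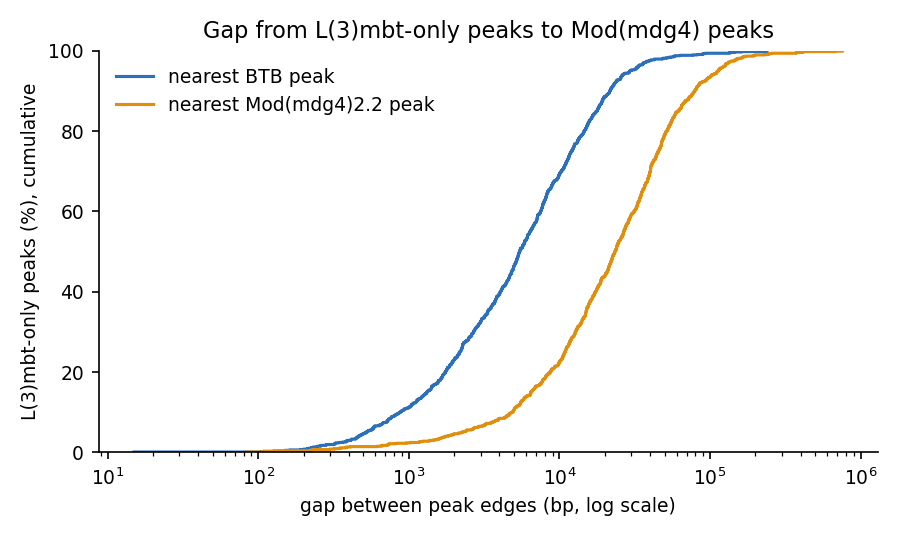
Cumulative share of the 966 L(3)mbt-only peaks (y axis, %) by the gap between their edge and the edge of the nearest BTB peak or the nearest Mod(mdg4)2.2 peak (x axis, bp, log scale). The median gap is 5452 bp to BTB and 23387 bp to 2.2.

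The number of BTB peaks around L(3)mbt-only peaks was like that around other L(3)mbt peaks, but the median gap to the nearest one was larger. A median of 6 BTB peaks that did not meet the peak itself lay within 50 kb of its centre (quartiles 4 and 8), and the median and quartiles were the same for the class with BTB and no 2.2 and for that with BTB and 2.2. The median gap was 5452 bp for L(3)mbt-only peaks (order-statistic 95% interval 5085 to 6062 bp). L(3)mbt peaks with BTB and no 2.2 had their nearest other BTB peak, one they did not meet, at a median of 4840 bp. For those with BTB and 2.2 it was 3845 bp. No interval is given for these 2 medians. The BTB peaks that the shared classes met are left out, so the gaps are not on equal terms and no conclusion is drawn from them.

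The BTB peak next to an L(3)mbt-only peak was often one that L(3)mbt itself occupied. Counting each once, 746 BTB peaks were the nearest to some L(3)mbt-only peak, and 422 of them met L(3)mbt (56.6%, 53.0 to 60.1%). Among all 6144 BTB peaks on the long arms 2183 did (35.5%, 34.3 to 36.7%). Within 5000 bp the share was 260 of 414 (62.8%, 58.0 to 67.3%). For the shared classes only the nearest BTB peak they did not meet could be taken. The BTB peaks left out there all meet L(3)mbt by definition, while L(3)mbt-only peaks lose none. This gave 657 of 1399 for L(3)mbt peaks with BTB and no 2.2 (47.0%, 44.4 to 49.6%). For those with BTB and 2.2 it gave 134 of 382 (35.1%, 30.5 to 40.0%). The 2.2 isoform was recorded at fewer of these neighbours. It met 159 of the 746 nearest BTB peaks of L(3)mbt-only peaks (21.3%, 18.5 to 24.4%), 322 of the 1399 next to peaks with BTB and no 2.2 (23.0%, 20.9 to 25.3%) and 144 of the 382 next to peaks with BTB and 2.2 (37.7%, 33.0 to 42.7%), against 35.7% of all BTB peaks on the long arms (34.5 to 36.9%). The first 2 classes thus had intervals that overlap for 2.2 but not for L(3)mbt. Because of the BTB peaks left out, the L(3)mbt shares are not on equal terms, and no conclusion is drawn from their order. Strength in the BTB list differed less, as 26.7% of the 746 were at its score ceiling (23.6 to 30.0%), against 30.7% of all (29.6 to 31.9%). The sets share BTB peaks with one another, so their differences were not tested.

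Other L(3)mbt peaks lay close to the L(3)mbt-only ones. The median distance to the nearest one, centre to centre, was 5794 bp for L(3)mbt-only peaks (quartiles 3248 and 12917 bp), 7785 bp for those with BTB and no 2.2 (3726 and 18509 bp) and 10810 bp for those with BTB and 2.2 (4411 and 28617 bp). Another L(3)mbt peak lay within 5000 bp of 428 L(3)mbt-only peaks (44.3%, 41.2 to 47.5%), against 37.3% of the whole long-arm L(3)mbt set. The nearest neighbours fell into the classes as follows. Of the 966 nearest neighbours, 486 met BTB and no 2.2 (50.3%, 47.2 to 53.5%), 80 met both (8.28%, 6.70 to 10.2%), 4 met 2.2 alone, and 396 were L(3)mbt-only themselves (41.0%, 37.9 to 44.1%). For the nearest neighbours of the whole long-arm L(3)mbt set, the shares with BTB and no 2.2, with both and L(3)mbt-only were 51.8, 11.8 and 36.2%.

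The share with an L(3)mbt-only neighbour was above the 33.8% found for all other L(3)mbt peaks (31.8 to 36.0%), by 7.16 points (3.42 to 10.9). L(3)mbt-only peaks that were each other's nearest neighbour were both counted. Intervals on neighbour shares take peaks as independent, so they may be too narrow even for counting error. The share with an L(3)mbt-only neighbour was higher for peaks with a close neighbour. The nearest neighbour was L(3)mbt-only for 200 of the 428 peaks that had one within 5000 bp (46.7%, 42.1 to 51.5%) and for 196 of the 538 others (36.4%, 32.5 to 40.6%). The difference from the other L(3)mbt peaks was 2.48 points (-1.58 to 6.65) when L(3)mbt peaks less than 2 kb apart were first joined, and 2.57 (-2.47 to 7.97) in the upper 50% of the L(3)mbt list. Where the nearest neighbour was a shared L(3)mbt peak, it outscored the L(3)mbt-only peak in 392 of 570 cases (68.8%, 64.9 to 72.4%), and where it was L(3)mbt-only, in 191 of 396 (48.2%, 43.4 to 53.1%). Over all long-arm L(3)mbt peaks the nearest neighbour scored higher for 1448 of 2890 (50.1%). Peaks with BTB scored higher as a class, so these shares are not a result separate from that difference. Joining at 2 kb put 206 of the 966 into a region that also held a shared L(3)mbt peak (21.3%). The other 760 formed 690 regions of L(3)mbt-only peaks alone, 62 of them with 2 or more peaks.

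**Figure D4:**
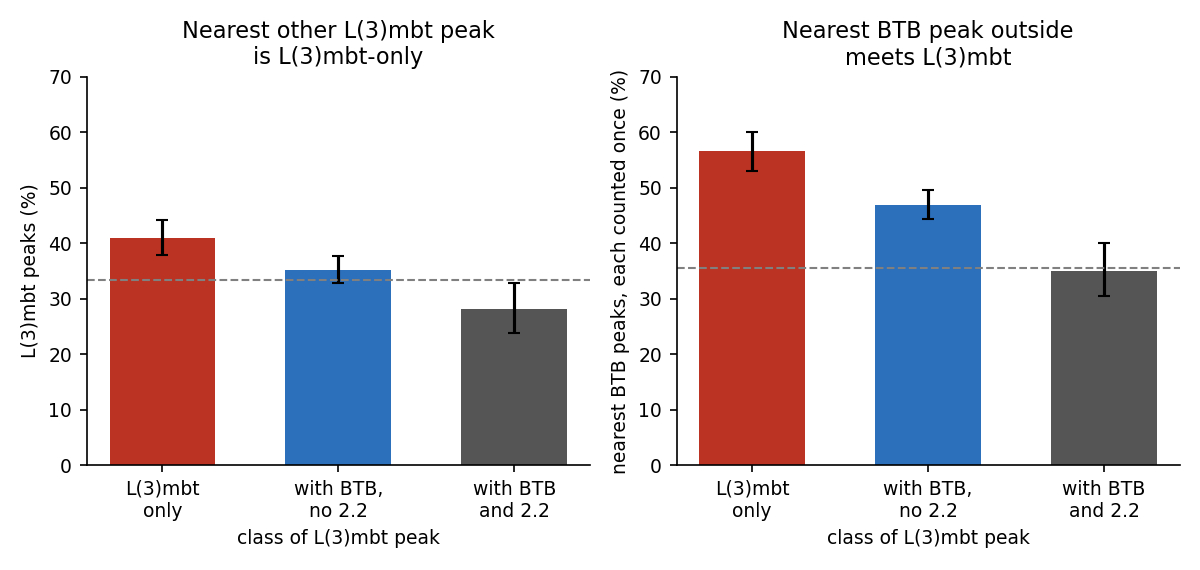
Left, share of L(3)mbt peaks (y axis, %) whose nearest other L(3)mbt peak met no Mod(mdg4) peak, by class of L(3)mbt peak. Right, share of the nearest BTB peaks outside the L(3)mbt peak, each counted once (y axis, %), that met L(3)mbt. Whiskers are 95% Wilson intervals and dashed lines are the long-arm shares, 33.4% of L(3)mbt peaks that are L(3)mbt-only and 35.5% of BTB peaks that met L(3)mbt. The share of all long-arm L(3)mbt peaks with an L(3)mbt-only nearest neighbour, 36.2%, is not drawn. The L(3)mbt-only class is the highest in both panels, at 41.0% and 56.6%. In the right panel, the BTB peaks left out for the other classes all met L(3)mbt, so the bars are not on equal terms.

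Along the arms, 376 L(3)mbt-only peaks stood alone between L(3)mbt peaks of other classes, and the other 590 (61.1%) formed 221 unbroken runs of 2 or more. A class that makes up 33.4% of the long-arm L(3)mbt peaks forms runs in a random order too. Neither the share in runs for such an order nor that of other classes is given here, so the runs are a description. In 138 of these runs, with 339 peaks, no BTB or 2.2 peak lay inside the run either. There were 135 runs of 2, 48 of 3, 21 of 4, 12 of 5, 4 of 6 and 1 of 8. The most compact of the long runs was on 2R, 4979419 to 5004658, with 6 L(3)mbt-only peaks in 25.2 kb and no Mod(mdg4) peak inside. Their scores, from low to high coordinate, were 189, 1078, 2042, 204, 340 and 773, so strong and weak peaks lay side by side there. The nearest BTB peak lay 15150 bp beyond the last of them. On 2R, 19944279 to 20076274, the run of 6 scored 1047, 2713, 151, 235, 147 and 1315 over 132 kb and held 2 BTB peaks between its members. On 3R, 18245219 to 18317591, the scores were 606, 393, 214, 150, 117 and 135 over 72.4 kb, with 1 BTB and 1 2.2 peak between.

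The other 2 long runs lay near the centromere end of their arm sequences. The run of 8 on 2R, 358103 to 1242553, had scores of 177 to 382 over 884 kb, with 4 BTB and 3 2.2 peaks between its members. The gap from a member to the nearest BTB peak there ran from 22217 to 239027 bp. In the run of 6 on 2L, 22425890 to 22816777, scores were 109 to 725 over 391 kb, with 1 BTB peak between and gaps to BTB of 48167 to 239204 bp. The 5 L(3)mbt-only peaks with the largest gaps to any Mod(mdg4) peak were 2L, 22812458 to 22816777 (239204 bp), 2R, 507188 to 508306 (239027 bp), 2L, 22735439 to 22736560 (162185 bp), 3L, 24235543 to 24240534 (144507 bp), and 2R, 617016 to 618473 (135431 bp). Their scores were 202, 242, 123, 102 and 382. Of the 15 L(3)mbt-only peaks with no Mod(mdg4) peak within 50 kb, 13 lay in the first Mb from the centromere end of an arm.

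That Mb was counted from the start of the sequence for 2R and 3R and from the highest peak end for 2L, 3L and X. In it L(3)mbt-only peaks were 32 of 68 L(3)mbt peaks (47.1%, 35.7 to 58.8%), against 49 of 115 in the second Mb (42.6%, 34.0 to 51.7%) and 745 of 2295 beyond 5 Mb (32.5%, 30.6 to 34.4%). Peaks of all 3 antibodies were sparse in the first Mb, and Mod(mdg4) peaks more so. The L(3)mbt-only class stood at 6.40 per Mb there and 8.14 over the arms as a whole, L(3)mbt peaks in all at 13.6 and 24.4, BTB at 24.4 and 51.8, and 2.2 at 7.80 and 18.5. The arms differed, with L(3)mbt-only peaks making up 9 of 11 L(3)mbt peaks in this Mb on 2R, 9 of 15 on 2L, 3 of 5 on X, 1 of 2 on 3L and 10 of 35 on 3R. How well reads can be aligned so close to the centromere end of an arm was not tested. Over 5 equal parts of the arm, from the centromere outwards, the shares were 36.6, 33.6, 31.0, 33.8 and 31.9%.

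**Figure D5:**
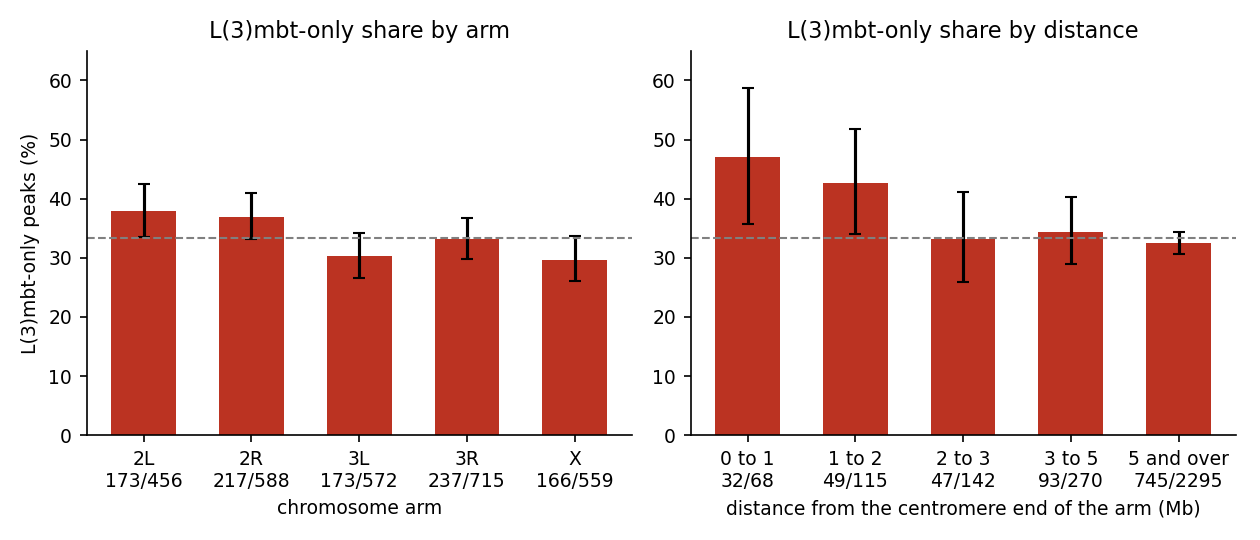
Share of L(3)mbt peaks that met no Mod(mdg4) peak (y axis, %), left by chromosome arm and right by distance from the centromere end of the arm (x axis, Mb), with the counts. Whiskers are 95% Wilson intervals and the dashed line is 33.4%, the share over the long arms. Shares by arm run from 29.7% on X to 37.9% on 2L, and the first Mb reaches 47.1%.

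Between arms the L(3)mbt-only peaks varied moderately. Their share of the L(3)mbt peaks was 37.9% on 2L (33.6 to 42.5%), 36.9% on 2R (33.1 to 40.9%), 30.2% on 3L (26.6 to 34.1%), 33.1% on 3R (29.8 to 36.7%) and 29.7% on X (26.1 to 33.6%). On the autosomal arms as a whole the share was 34.3%, and the difference of X from them was -4.62 points (interval -8.75 to -0.272). The interval reached past 0 under 4 of 9 alternatives. With X against single arms, the intervals overlap barely for 2L and 2R and widely for 3L and 3R. The order of the arms is thus not settled by counting error alone. Density was 10.3 per Mb on 2R, 8.50 on 3R, 7.58 on 2L, 7.42 on X and 7.07 on 3L. The arm 2R also had the highest median score among L(3)mbt-only peaks, 263, and 23 of 217 at 1000 or more (10.6%). The other 4 arms had medians of 210 to 218 and 4.05 to 8.44% at 1000 or more, while 3R held 6 of the 10 highest scores. Scores of all L(3)mbt peaks by arm are not given here, so these values are not read as particular to the L(3)mbt-only class. Median widths ran from 1392 bp on 3R to 1569 bp on 2R. The gap to BTB was widest on 2L, with a median of 8068 bp, where BTB peaks were also sparsest at 44.3 per Mb, and shortest on 2R, with 4472 bp, where they were densest at 57.5 per Mb.

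The genes and the DNA at these peaks were not analysed here. No source used here names the genome build. The sequence names match release 5 of the fly genome, and the gene table at hand is of release 6, so positions are given without annotation.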

How the data were processed

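Each library has 1 list of peaks, deposited by the authors with position, name and score. The score is the peak caller's value for each peak as deposited. The submitters' processing notes name Bowtie 0.12.5. The peak names in the files begin with MACS. The caller's version and settings, the genome build and the use of control reads were not given in the sources used here. Any control shared by the lists was not analysed.

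Overlap (at least 1 bp), gaps and distances were computed with Python 3.11.15, numpy 2.4.6, pandas 2.3.3 and scipy 1.17.1. The overlap code was checked on planted peaks, and bedtools gave the same 966 peaks. Percentiles use the whole L(3)mbt list. Intervals of median differences combine order-statistic 95% intervals, and those of share differences combine Wilson intervals. No p-value was computed. Positions count from 1.

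The members, named peaks and alternatives were chosen with earlier results of these data known. Peaks were named by a rule: the 10 highest scores, the 5 largest and 5 smallest gaps to Mod(mdg4), the 5 smallest overlaps outside, and the 5 longest runs.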

Additional observations from a re-analysis of the deposited data

Results flagged for a closer look

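L(3)mbt-only peaks also occur in sequence that the comparisons above leave out. Outside the long arms, 195 of 462 L(3)mbt peaks met no Mod(mdg4) peak (42.21%, 37.79 to 46.76%). They were 169 of 417 on Uextra (40.5%, 35.9 to 45.3%), 8 of 16 on U, 13 of 20 in placed heterochromatin and 5 of 9 on chromosome 4. No control list was available to set this signal against.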

How the results depend on the processing

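The alternatives were an overlap of 50% of the shorter peak, centres at most 200 bp apart, 400 bp around each centre, a margin of 500 bp, the upper 50% of every list or of L(3)mbt alone, L(3)mbt scores of 200 or more, the BTB list alone, the autosomal arms alone and, chosen after seeing the data, leaving out the first Mb from the centromere. The differences between classes in score percentile, in width and in the share with an L(3)mbt-only neighbour kept their sign under all of them. Other differences between classes were not recomputed, and none of the alternatives was a test. The L(3)mbt-only count became 1662 with centres within 200 bp, 358 in the upper 50% of L(3)mbt and 554 at scores of 200 or more. The share of L(3)mbt peaks that are L(3)mbt-only became 57.5% (centres), 46.1% (400 bp), 31.5% (500 bp margin), 50.9% (upper 50% of every list), 23.7% (upper 50% of L(3)mbt) and 27.7% (200 or more). The score percentile difference from peaks with BTB and no 2.2 became -3.79, -7.46, -7.01, -8.08 and -12.1 for centres, 400 bp, the upper 50% of every list, the upper 50% of L(3)mbt and 200 or more. The width difference, 73.5 bp in the main setting, became 509, 447, 139, 198 and 139 bp for the same 5 settings, and 313, 324 and 379 bp within scores of 200 to 500, 500 to 1000 and 1000 and over. The share with an L(3)mbt-only neighbour became 62.9, 54.1, 55.9, 27.1 and 32.7% for those 5 settings and 32.9% with peaks under 2 kb apart joined. It moves with the L(3)mbt-only share itself. Its excess over other L(3)mbt peaks became 2.57 points (upper 50% of L(3)mbt) and 2.48 points (joined). The share with BTB within 1000 bp became 48.1% (centres), 35.2% (400 bp), 5.93% (500 bp margin) and 6.39% (upper 50% of every list). The median gap to BTB became 1270 bp (centres), 2862 bp (400 bp) and 10701 bp (upper 50% of every list). Centre and 400 bp settings count wide peaks that overlap off centre as unshared, and the upper 50% settings remove weak peaks. Other causes were not tested. The X difference kept its sign, but its interval included 0 under 4 of 9 alternatives, at -1.66 points (centres), -4.31 (400 bp), -4.45 (upper 50% of every list) and -4.73 (200 or more). How depth acts on which weak Mod(mdg4) peaks were listed was not tested. No paired analysis was possible because each antibody has 1 library.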

Other observations

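Within each band of score, L(3)mbt-only peaks were also counted among wide and among narrow L(3)mbt peaks. At scores of 100 to 200 they were 32 of the 54 peaks of 2000 bp or more (59.3%, 46.0 to 71.3%), against 312 of the 715 under 1500 bp (43.6%, 40.0 to 47.3%). At 200 to 500 they were 98 of the 174 wide peaks (56.3%, 48.9 to 63.5%), against 177 of the 621 narrow ones (28.5%, 25.1 to 32.2%). In the band of 500 to 1000 they were 57 of 180 wide peaks (31.7%, 25.3 to 38.8%), against 25 of 194 narrow ones (12.9%, 8.88 to 18.3%). From 1000 to 3100 they were 45 of 222 wide peaks (20.3%, 15.5 to 26.0%), against 10 of 99 narrow ones (10.1%, 5.58 to 17.6%). The intervals overlap in this band and in the lowest. The score ceiling went the opposite way on small counts, with 2 of 32 wide peaks (6.25%, 1.73 to 20.1%), against 1 of 7 narrow ones (14.3%, 2.57 to 51.3%). Width is tied to the rule, so these shares are a description.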
